A study of Homo sapiens with 9 samples.

Results

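MAF1, the general repressor of RNA polymerase III (Pol III), and 9 genes of the Pol III machinery were examined in HCT116 colon cancer cells carrying TIG1A or TIG1B. The 10 genes are MAF1, POLR3A, POLR3B, POLR3C, POLR3D, POLR3E, POLR3K, BRF1, BRF2 and BDP1. Every probe set annotated to one of them was taken, which gave 25 of the 54675 probe sets of the HG-U133 Plus 2.0 array. BRF1 and BRF2 were matched by gene number, because the zinc finger genes ZFP36L1 and ZFP36L2 have carried the same names.

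Pol III makes short untranslated RNAs, among them transfer RNAs, the 5S ribosomal RNA and the U6 small nuclear RNA. It is brought to its genes by TFIIIB, which is built from TBP, BDP1 and either BRF1 or, at promoters of the U6 kind, BRF2. MAF1 binds the polymerase and keeps it from TFIIIB, and the nutrient-sensing kinase complex mTORC1 phosphorylates MAF1 and relieves this repression.

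The study compared 3 HCT116 stable cell lines made with the GeneSwitch system, in which mifepristone (MFP) turns on a plasmid gene through the pSwitch regulator that all the lines carry. TIG1A and TIG1B are the longer and the shorter protein isoform of RARRES1, and the control stable cells hold the empty pGene/V5 plasmid. Each group stands for 1 stable clone with 3 arrays, and all 9 cultures received 5 nM MFP for 24 h, so that the induced protein and any other difference between clones cannot be told apart. The samples are described as independent for each clone, and p-values measure the spread between these cultures only.

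Intensities are linear and were scaled by the authors to a common target on every array. The median intensity of an array ranged from 59.9 to 73.9. RARRES1 followed the labels: on its brightest probe set (206392_s_at) control cells had a mean of 4.24 ± 1.19 (SD, n = 3), TIG1A cells one of 62881 ± 4179 and TIG1B cells one of 39336 ± 4496. Of 6 markers of colon epithelium, 5 lay above the array median on all 9 arrays, and VIL1 did so on 3. KRT19 fell by 0.66 on the log2 scale in both TIG1 lines (adjusted p = 0.0267 and 0.0435), and CDH1 rose by 0.59 in TIG1A cells (adjusted p = 0.0481, limma), each on its brightest probe set. Of 7 markers of other cell types, PECAM1 alone lay above it on all 9 arrays. The summed intensity of these 7 markers ranged from 320.5 to 503.9 in control, from 215.6 to 229.9 in TIG1A and from 276.6 to 285.8 in TIG1B cells, and its part in the results was not tested.

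Testing was limited to probe sets at or above the array median on 2 or more arrays within any one group. This left 29977 probe sets in all, covering 13407 genes, and 18 of the 25, with at least 1 for each of the 10 genes. The 7 others, 1 of POLR3A and 2 each of POLR3B, POLR3E and BRF1, reached it on at most 1 array and were not tested. Fold changes are differences of group means on the log2 scale, and adjusted p-values are those of limma's moderated test with Benjamini-Hochberg adjustment over all 29977.

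MAF1 was the single gene of the 10 to pass the test in any comparison, and it did so by its level in TIG1A cells. It has 1 probe set (222998_at), and its gene lies on chromosome 8. Its intensity was 3729.85, 3105 and 3908 on the control arrays, 8601, 8824 and 8848 on the TIG1A arrays, and 3583, 3899 and 4134 on the TIG1B arrays. The TIG1A arrays thus lay close together and far above the other 6, whereas TIG1B and control cells overlapped. Relative to the control mean, the TIG1A arrays stood at 2.40, 2.46 and 2.47. In such bulk RNA, more transcript per cell and more cells that hold it cannot be told apart. The coefficient of variation was 1.56% in TIG1A, 7.14% in TIG1B and 11.8% in control cells.

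MAF1 rose by 1.30 ± 0.14 (SE) on the log2 scale in TIG1A against control cells (adjusted p = 0.00798, limma, higher on 3 of 3 arrays). Of all probe sets tested, 6.06% passed in this comparison, 2.86% upwards and 3.2% downwards. By size the rise held place 997 of 29977, and by p it held place 55. The members were chosen with earlier results of these data known, so the MAF1 rise here is not independent evidence. Without the filter on dim probe sets the adjusted p was 0.0576, and with the methods' t-test, adjusted in the same way, it was 0.0523.

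In TIG1B against control cells the MAF1 difference was 0.12 ± 0.14 on the log2 scale (adjusted p = 0.687, limma), with a 95% interval from -0.20 to 0.44. In this comparison 1.78% of all probe sets passed, 0.701% upwards and 1.08% downwards, and none of the 18 did. TIG1A and TIG1B cells were also compared directly. MAF1 was higher in TIG1A by 1.18 ± 0.14 (adjusted p = 0.0270, limma), in a comparison that 0.417% of all probe sets passed, 0.277% upwards. The call between TIG1A and TIG1B depended on having all arrays of both lines. Leaving out any one of the TIG1A arrays gave adjusted p of 0.0856, 0.101 and 0.0908, and leaving out any one of the TIG1B arrays gave 0.100, 0.0990 and 0.0788. A test of any difference among the 3 groups also called MAF1 alone of the 18 (adjusted p = 0.0118, limma's F test), against 4.07% of all.

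**Figure D1:**
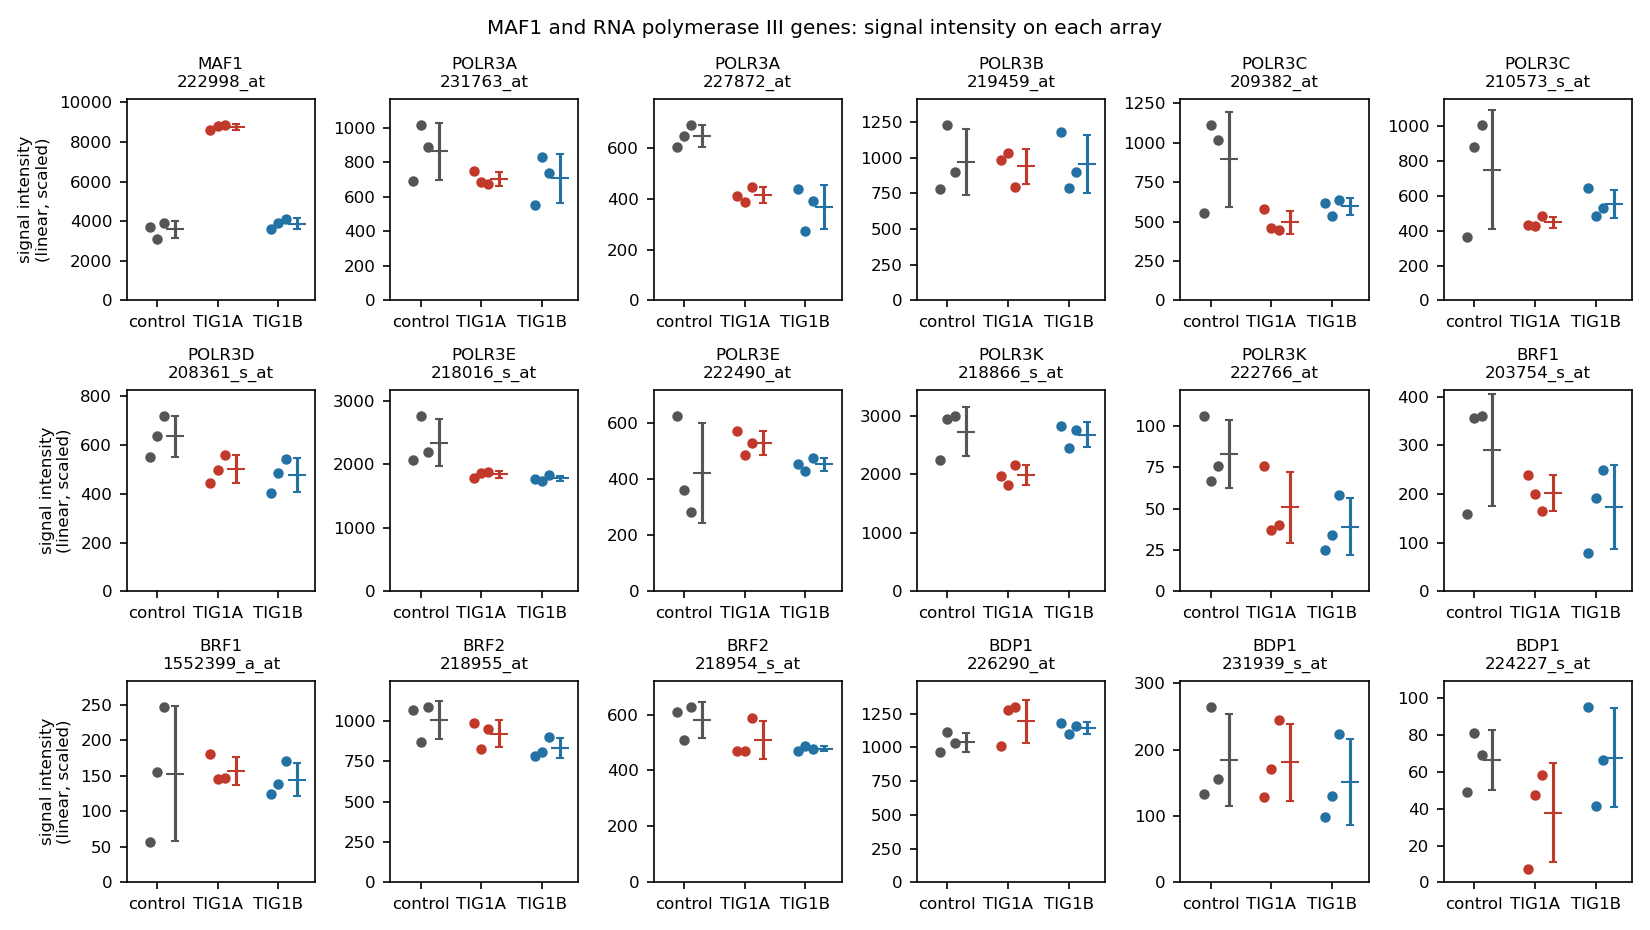
Signal intensity (linear, scaled; each panel has its own axis from 0) of the 18 tested probe sets on each of the 9 arrays, with a bar for the mean ± SD of each group of 3. MAF1 on the TIG1A arrays, from 8601 to 8848, stands clear of the control and TIG1B arrays, which reach 4134 at most.

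POLR3A and POLR3B encode the subunits that form the catalytic core of Pol III. No probe set of either passed the test in any comparison. The nearest was 227872_at of POLR3A, with 605, 648 and 690.4 in control, 412, 386 and 448 in TIG1A and 439, 272 and 391 in TIG1B cells. All 6 arrays of the TIG1 lines lay below all control arrays, by -0.64 ± 0.19 in TIG1A (adjusted p = 0.0904) and -0.84 ± 0.19 for TIG1B (adjusted p = 0.0772, limma). Both comparisons share the 3 control arrays. The other tested probe set of POLR3A, 231763_at, read 690.4, 1016 and 887 in control, 752, 685 and 673 in TIG1A and 553, 833 and 737 in TIG1B cells. Its groups overlapped, with differences of -0.28 and -0.29 (adjusted p = 0.432 and 0.490, limma).

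POLR3B (219459_at) read 779, 1229 and 899.96 in control, 988, 1033 and 799 in TIG1A and 1183, 791 and 898 in TIG1B cells. The 3 groups lay over each other, and the differences of -0.03 and -0.01 had 95% intervals from -0.56 to 0.50 and from -0.54 to 0.52. At this number of arrays a change of that size was not detectable.

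POLR3C is part of the subcomplex that engages TFIIIB and opens the promoter. Its probe set 209382_at read 553, 1111 and 1017 in control, 579.9, 456 and 445 in TIG1A and 618, 534 and 638 in TIG1B cells. The first control array lay among the TIG1 arrays, and the other two lay well above them. The differences were -0.80 ± 0.27 in TIG1A (adjusted p = 0.119) and -0.52 ± 0.27 for TIG1B (adjusted p = 0.349, limma). The second probe set, 210573_s_at, showed the same low first control array, at 365 against 881 and 1005. TIG1A read 432, 426 and 484 there, and TIG1B 643, 486 and 533.

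Whether POLR3C passed turned on control array 1. Without it the TIG1A difference was -1.12 on 209382_at (adjusted p = 0.0159) and -1.07 on 210573_s_at (adjusted p = 0.0162), and the TIG1B difference on 209382_at was -0.84 (adjusted p = 0.0482, limma). It was the lowest control array on 13 of the 18 tested probe sets (72.2%), against 35.6% of all 29977. Its ratio to the mean of the other control arrays was 0.520 and 0.387 for POLR3C and 0.444 and 0.285 for BRF1, and 1.06 for MAF1.

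POLR3D and POLR3E form a pair of subunits that acts in initiation and termination. POLR3D (208361_s_at, chromosome 8) read 551, 638 and 717 in control, 445, 499 and 557 in TIG1A and 402, 486 and 542 in TIG1B cells. TIG1B lay below control without overlap and TIG1A did not, with differences of -0.42 (adjusted p = 0.256) and -0.34 (adjusted p = 0.266, limma).

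POLR3E had 2 tested probe sets with values of opposite sign. The brighter, 218016_s_at, read 2075, 2761 and 2189.5 in control, 1779, 1869 and 1879 in TIG1A and 1774, 1747 and 1828 in TIG1B cells. Both TIG1 lines lay below all control arrays, by -0.34 (adjusted p = 0.194) and -0.38 (adjusted p = 0.211, limma). The dimmer, 222490_at, read 625, 362 and 285 in control, 574, 487 and 529.7 in TIG1A and 456, 431 and 477 in TIG1B cells. Here control array 1 was the highest of all 9 arrays. Without it the TIG1A difference went from 0.40 (adjusted p = 0.394) to 0.72 (adjusted p = 0.0362, limma).

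POLR3K is the small subunit that cleaves the transcript within the polymerase and takes part in termination. Its brighter probe set, 218866_s_at, read 2246, 2941 and 2992 in control, 1978, 1824 and 2159 in TIG1A and 2833, 2441 and 2759 in TIG1B cells. All TIG1A arrays lay below all others. The difference was -0.45 ± 0.16 from control (adjusted p = 0.135) and -0.43 ± 0.16 from TIG1B cells (adjusted p = 0.309, limma), while TIG1B and control cells differed by -0.02. Without control array 1 the TIG1A difference was -0.58 (adjusted p = 0.0465). The dim probe set 222766_at, near the array median in control cells, gave -0.75 in TIG1A and -1.14 for TIG1B (adjusted p = 0.272 and 0.176, limma).

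Of the TFIIIB proteins, BRF1 and BDP1 serve the transfer RNA and 5S genes. BRF1 (203754_s_at) read 159, 356 and 360.1 in control, 239, 201 and 165 in TIG1A and 79.5, 192 and 249 in TIG1B cells. The spread within groups was as wide as the distance between them, with differences of -0.45 and -0.81 (adjusted p = 0.590 and 0.411, limma). Its other tested probe set (1552399_a_at) gave 0.27 and 0.14, and its values on the control arrays ran from 57.4 to 247.

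BDP1 (226290_at) read 969, 1111 and 1031 in control, 1010.25, 1274 and 1298 in TIG1A and 1182, 1099 and 1157 in TIG1B cells. The groups overlapped, and the differences were 0.20 and 0.15 (adjusted p = 0.432 and 0.629, limma). A dimmer probe set, 231939_s_at, gave -0.01 and -0.31. The third, 224227_s_at, lay below the array median on all TIG1A arrays and gave -1.25 (adjusted p = 0.337) and -0.02, with a 95% interval from -2.98 to 0.48 for TIG1A. The TIG1A value rested on array 1, which read 7.34 against 47.6 and 58.3 on the others, and it was -0.31 (adjusted p = 0.661, limma) without that array.

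BRF2, the TFIIIB subunit of U6-type promoters, lies on chromosome 8 like MAF1 and POLR3D. Its probe set 218955_at read 1065, 871 and 1085 in control, 985, 829 and 953 in TIG1A and 782, 810.3 and 904 in TIG1B cells. The groups overlapped. On 218954_s_at the TIG1B arrays, from 469 to 486, lay below the lowest control array at 509, and the difference was -0.28 ± 0.15 (adjusted p = 0.365, limma).

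**Figure D2:**
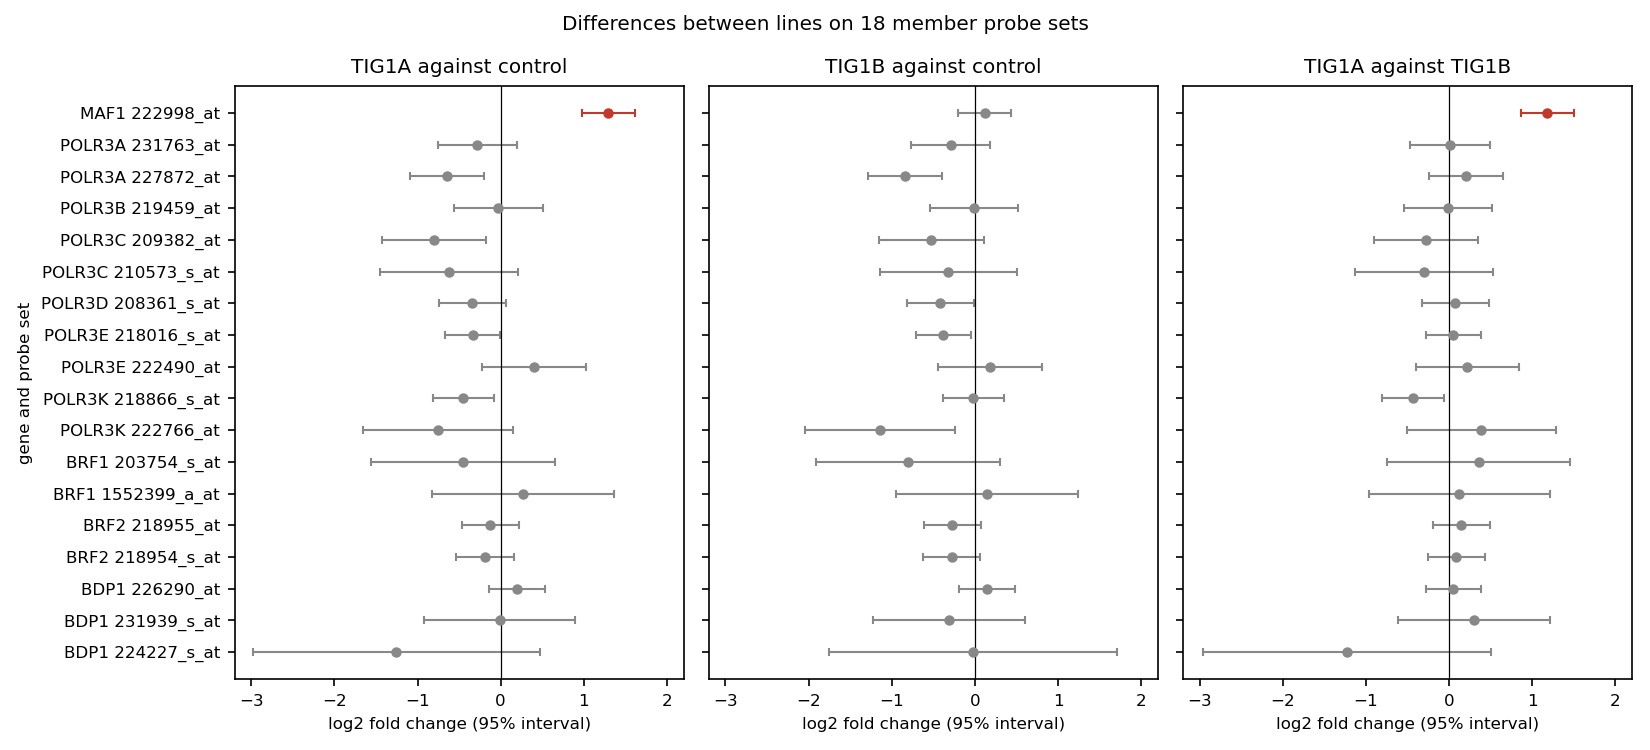
Difference in log2 intensity on the 18 tested probe sets, with 95% intervals from the limma fit, for each TIG1 line against control and for TIG1A against TIG1B. The red points, which passed the test, are MAF1 at 1.30 and 1.18.

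Across the 18 tested probe sets, groups did not overlap on 4 in TIG1A against control cells, or 22.2% against 30.7% of all probe sets. MAF1 lay above control, and 3 lay below (POLR3A 227872_at, POLR3E 218016_s_at and POLR3K 218866_s_at), against 16.9% of all. In TIG1B against control cells 5 of the 18 did not overlap, or 27.8% against 24.9% of all. All 5 were lower, against 14.0% of all, namely POLR3A 227872_at, POLR3D, POLR3E 218016_s_at, POLR3K 222766_at and BRF2 218954_s_at. Between the TIG1 lines 4 did not overlap, or 22.2% against 24.1% of all. An unadjusted p under 0.05 was reached by 5 of the 18 for TIG1A, 4 for TIG1B and 2 between the TIG1 lines, and by 25.0%, 18.5% and 13.3% of all probe sets.

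Leaving MAF1 aside, 14 of 17 tested probe sets had a value below 0 in TIG1A against control cells, and the same 14 of 17 in TIG1B cells. All probe sets gave 53.3% and 52.8% below 0. The median difference of the 17 was -0.34 in TIG1A and -0.29 in TIG1B cells, against -0.04 and -0.03 over all probe sets. The count depended on the scaling. It was 12 of 17 in each line after quantile normalisation and 11 of 17 after each array was centred on its median, which moved the median of all probe sets to 0.12 in both lines. The distance between both medians was -0.29 in TIG1A and -0.26 in TIG1B cells. Centring moves all probe sets of an array by the same amount, so it could not change this distance. Without control array 2 the count was 12 in TIG1A and 11 in TIG1B cells, and the TIG1B median was -0.17. Without control array 1 it was 14 of 16 tested in each line, with medians of -0.43 and -0.45. None of these 17 passed the test, and both comparisons share the control arrays.

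Of the 7 probe sets that were not tested, 5 lay below the array median on all 9 arrays. 1556803_at of POLR3B rose above it on TIG1B array 1 only, and 215676_at of BRF1 on TIG1A array 1 only, where it read 104.1.

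The wider machinery was described with gene lists. The other Pol III subunits, some of them shared with Pol I and Pol II, had 20 tested probe sets of 11 genes. POLR2H, a subunit that all these polymerases share, was the single one that passed, in TIG1A against control cells. It read 7817, 7795 and 7576 in control, 10707, 11664 and 12255 in TIG1A and 7947, 9676 and 9303 in TIG1B cells. All TIG1A arrays lay above all others, with a rise of 0.58 ± 0.13 against control (adjusted p = 0.0459, limma). The median of the list was -0.06 in TIG1A and -0.04 in TIG1B cells, close to that of all probe sets.

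TFIIIA and TFIIIC, which recognise the promoters of 5S and transfer RNA genes, and TBP had 18 tested probe sets of 8 genes. One fell in TIG1A cells, 233173_x_at of the TFIIIC subunit GTF3C5, by 0.51 on the log2 scale (adjusted p = 0.0475, limma). It read 2534, 2688 and 2795 in control, 1906, 1873 and 1856 in TIG1A and 2052, 1848 and 1881 in TIG1B cells. Both TIG1 lines lay below all control arrays. Probe sets of this class can bind more than 1 transcript, and the other GTF3C5 probe set (217876_at) gave -0.12 (adjusted p = 0.779). The list had a median of -0.09 in TIG1A and -0.01 in TIG1B cells.

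SNAPc, the complex that recognises promoters of the U6 kind, and its activators had 11 tested probe sets, and none passed in any comparison under limma. An unadjusted p under 0.05 was reached by 3 of them for TIG1A, 1 for TIG1B and 1 between the TIG1 lines. Of all probe sets, 25.0%, 18.5% and 13.3% reached it. The median was 0.03 in TIG1A and -0.06 in TIG1B cells.

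The regulators upstream of MAF1 and Pol III had 16 tested probe sets of 10 genes, and 2 fell in TIG1A against control cells. AKT1S1 encodes PRAS40, an inhibitor within mTORC1, and read 1521, 2168 and 2048 in control, 893, 807 and 1073 in TIG1A and 910.3, 966 and 1518 in TIG1B cells on 224982_at. It fell by 1.04 on the log2 scale in TIG1A cells (adjusted p = 0.0487, limma), and the TIG1A arrays lay far below control. CSNK2A2, a catalytic subunit of casein kinase 2, which phosphorylates Pol III factors, read 2358, 2307 and 2283 in control, 1504, 1583 and 1320.25 in TIG1A and 1838, 1797 and 1909.8 in TIG1B cells on 224922_at. It fell by 0.66 in TIG1A cells (adjusted p = 0.0280, limma), with TIG1B between the other two lines. The second probe set of each gene gave -0.13 (AKT1S1) and 0.13 (CSNK2A2), neither past the test.

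The subunits that belong to Pol I or Pol II alone served as a comparison and had 28 tested probe sets. POLR1G, a Pol I subunit, fell in TIG1A cells by 1.29 on the log2 scale (adjusted p = 0.0309, limma). In TIG1B cells both probe sets of the Pol I subunit POLR1F fell, by 0.85 and 1.75 (adjusted p = 0.0317 and 0.0331), and the Pol II subunit POLR2G rose by 0.69 (adjusted p = 0.0430, limma). POLR1F read 1009, 1198 and 1158 in control, 904, 1037 and 903 in TIG1A and 583, 635 and 639 in TIG1B cells on 226784_at. Of the 28 probe sets, 78.6% lay below 0 in TIG1A and 64.3% in TIG1B cells, against 53.3% and 52.8% of all. Their medians were -0.28 and -0.15, against -0.04 and -0.03 over all probe sets. The 18 member probe sets, MAF1 included, had 77.8% below 0 in each line, with medians of -0.31 and -0.28.

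Over these lists 5 of 93 tested probe sets passed in TIG1A against control cells (5.38%, against 6.06% of all probe sets) and 3 of 93 in TIG1B against control cells (3.23%, against 1.78%). In TIG1A against TIG1B cells 0 of 93 passed under limma, against 0.417%. In the last comparison an unadjusted p under 0.05 was reached by 13.3% of all probe sets. In the lists, in the order given, it was reached by 3 of 20, 0 of 18, 1 of 11, 2 of 16 and 8 of 28. Leaving out control array 2 or 3, any TIG1A array or TIG1B array 2 brought the 5 to 0, TIG1B array 3 brought it to 2, and leaving out control array 1 brought it to 14. The 3 became 0 without control array 2 or 3, TIG1A array 2 or any TIG1B array, and 1 without TIG1A array 3. Of the RNAs that Pol III makes, RPPH1 alone had a probe set, and it was too dim to be tested, so the output of the polymerase was not measured on these arrays.

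**Figure D3:**
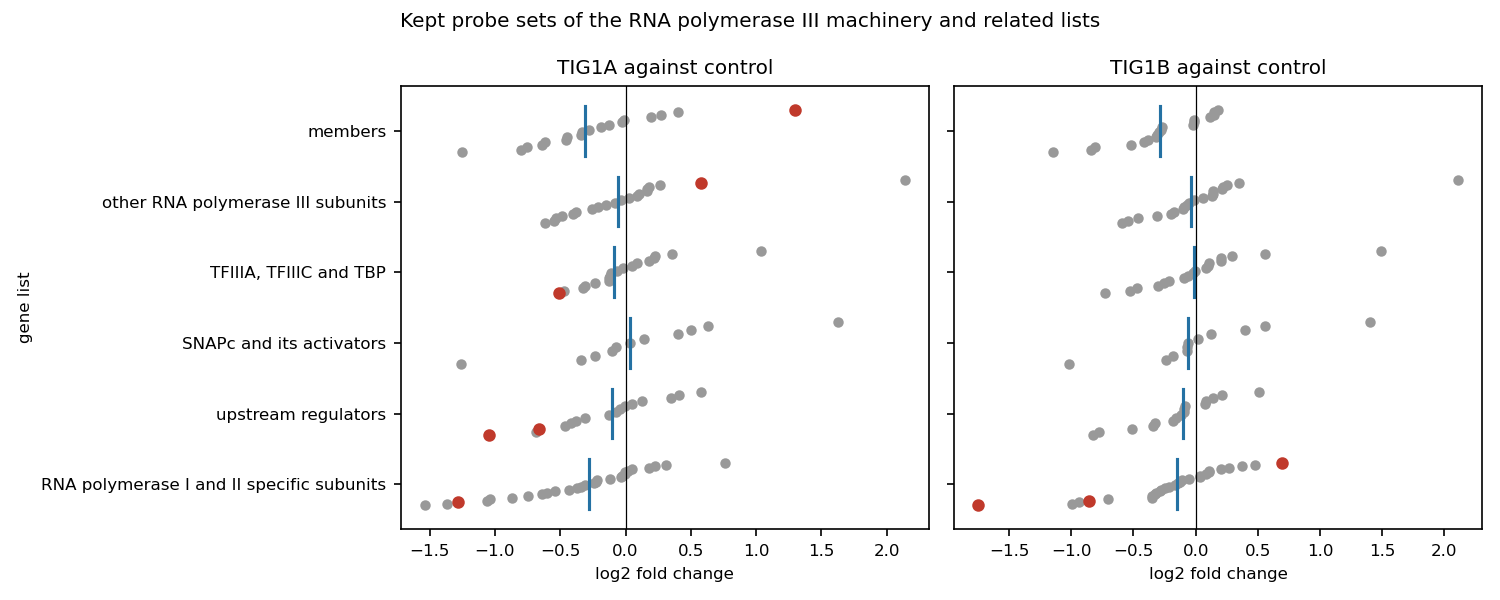
Difference in log2 intensity of each tested probe set (grey points; red where it passed the test) in TIG1A and TIG1B against control cells, by gene list, with the median of each list as a blue bar. MAF1 is the red point at 1.30 in the top row, and the medians of the members and of the Pol I and Pol II subunits lie farther below 0 than those of the other lists.

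The genes beside MAF1 on chromosome 8 were also read. The 10 measured genes on each side of MAF1, from EPPK1 to SLC39A4, had a median difference of 0.51 in TIG1A against control cells, against 0.08 for the 485 measured genes of the chromosome. Of these 20 neighbours, 16 lay above 0. The MAF1 difference was 0.79 larger than their median, and PARP10 alone lay above it, at 1.78.

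Over all tested probe sets, dimmer ones of a gene included, 2.86% rose in TIG1A cells. On the brightest tested probe set of each gene, an unlike set, 5 of the 20 neighbours rose and 1 fell. Named after their values were seen, these were EXOSC4 (0.89, adjusted p = 0.0279), SHARPIN (0.99, adjusted p = 0.0264), MROH1 (1.27, adjusted p = 0.00917), DGAT1 (1.04, adjusted p = 0.0210) and SLC39A4 (1.23, adjusted p = 0.0139), and HSF1 fell by 1.00 on the log2 scale (adjusted p = 0.0302, limma). DGAT1, the enzyme of the last step of triglyceride synthesis, averaged 1831 ± 100.4 (control), 3756 ± 265 (TIG1A) and 1875 ± 381 (TIG1B; SD, n = 3 each). MROH1 had 708 ± 96.2, 1695 ± 104 and 819.9 ± 13.5. As for MAF1, TIG1A stood above both other groups.

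In TIG1B against control cells the median of the 20 neighbours was 0.07, and EXOSC4, a subunit of the RNA exosome, rose by 0.87 (adjusted p = 0.0471, limma). In TIG1A against TIG1B cells it was 0.39, with 19 of 20 above 0, none above MAF1, and MROH1 past the test at 1.05 (adjusted p = 0.0362, limma). With 25 genes on each side the median was 0.34 in TIG1A and -0.14 in TIG1B against control cells, and 36 of 50 lay above 0 in TIG1A. Between the TIG1 lines it was then 0.47, with 46 of 50 above 0 and 6 of 50 above MAF1.

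Directly beside MAF1, SHARPIN, a subunit of the linear ubiquitin ligase, averaged 556 ± 50.9 (control), 1115 ± 214 (TIG1A) and 923 ± 118 (TIG1B; SD, n = 3 each). HGH1 on the other side had 881 ± 233, 804 ± 45.3 and 654 ± 61.8. In TIG1A against control cells SHARPIN thus rose by 0.99, while HGH1 differed by -0.10 ± 0.20 (SE, adjusted p = 0.787, limma). In TIG1A against TIG1B cells their differences were 0.26 and 0.30, neither past the test. Around POLR3D and BRF2, elsewhere on chromosome 8, the neighbours had medians of 0.06 and -0.06 in TIG1A against control cells. Around the members on other chromosomes the medians ran from -0.34 (POLR3C, 4 of 20 neighbours above 0) to 0.29 (POLR3A). A shifted neighbourhood was thus not particular to MAF1. The part of the neighbourhood in the MAF1 and POLR3C differences was not tested.

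**Figure D4:**
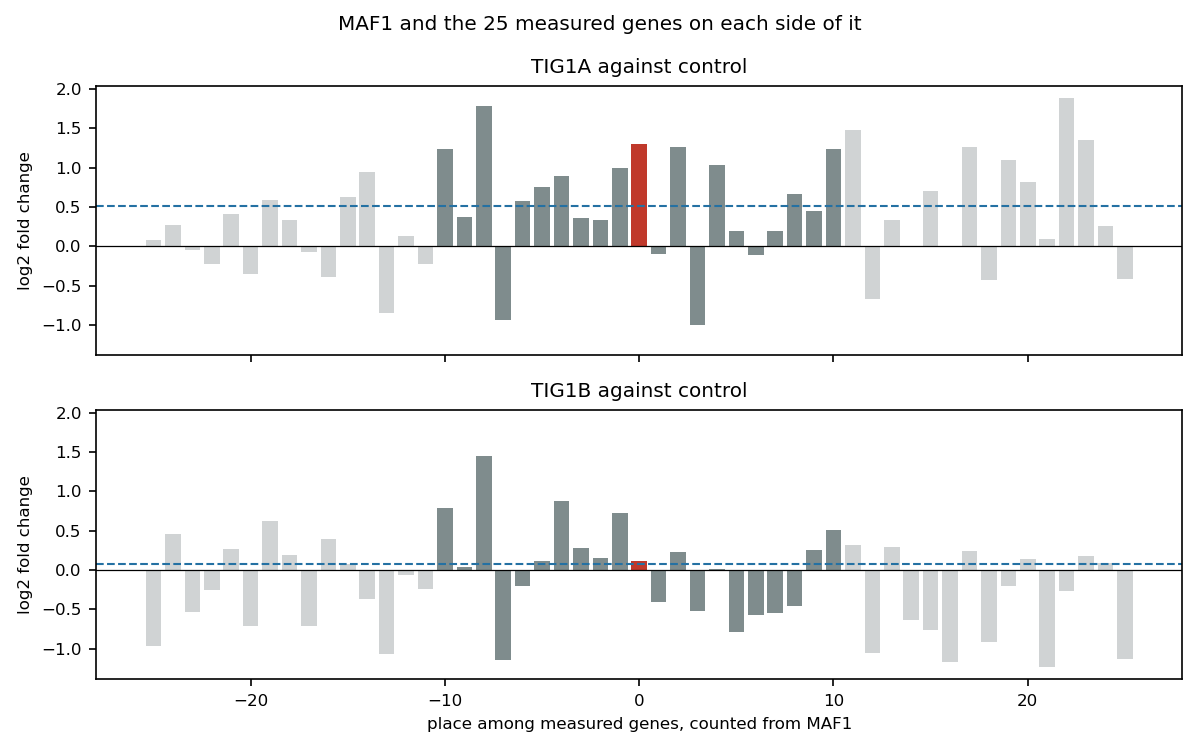
Difference in log2 intensity of MAF1 (red, at place 0) and of the 25 measured genes on each side of it in chromosomal order, for TIG1A and TIG1B against control cells, with the nearest 10 on each side in dark grey and their median as a dashed line. The dashed line lies at 0.51 in TIG1A and 0.07 in TIG1B cells.

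The genes whose log2 intensity followed that of MAF1 most closely over the 9 arrays lay on other chromosomes. They were LMBRD1 (Pearson r = 0.993), a lysosomal membrane protein of cobalamin export, ABRAXAS2 (0.986), BPTF (0.983), a chromatin remodelling subunit, EHF (0.981), an epithelial transcription factor, and SLC35B3 (0.978). These 9 points are 3 arrays of each of 3 clones, so that r mainly carries the step between clones, and no p is given for it. The list depended on the measure. Among the first 5 by Spearman rho, LMBRD1 and EHF stayed, the others changed, and none lay on chromosome 8. A high r did not mean a large difference: ABRAXAS2 rose by 0.36 in TIG1A against control cells, not past the test (adjusted p = 0.0984, limma). LMBRD1 averaged 1433 ± 185 (control), 2645 ± 132 (TIG1A) and 1505 ± 107 (TIG1B; SD, n = 3 each), and BPTF had 4164 ± 679.5, 10902 ± 98.1 and 5248 ± 807. EHF stood at 3.69 ± 0.76 in control and 5.12 ± 2.90 in TIG1B cells, far below the array medians, and at 69.1 ± 29.3 in TIG1A cells. Among the members, each on its brightest probe set, POLR3K (218866_s_at) ran most against MAF1 (r = -0.847) and BDP1 (226290_at) most with it (r = 0.423).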

How the data were processed

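Total RNA of 3 stable HCT116 lines was measured on 9 Affymetrix arrays. The authors deposited 1 intensity for each probe set, not log-transformed, computed with the GeneChip Operating System (GCOS) and globally scaled to a target of 500. This was checked: the mean of each array without its lowest and highest 2% was 499.9. Detection calls were not used here. The labels give MFP in nM and the series description in µM; the labels were followed.

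Intensities under 1 were set to 1 and log2-transformed. Probe sets at or above the 50th percentile of the array on at least 2 of 3 arrays of a group were kept. limma 3.58.1 in R 4.3.3 was fitted to all 9 arrays with 1 mean per group (6 residual and 1.84 prior degrees of freedom) and Benjamini-Hochberg adjustment at 0.05. The fit was tested on simulated data. Of the 41097 probe sets with a single gene symbol in the array annotation, 41043 matched a GRCh38 gene table by gene number, while 1801 had several symbols and 11777 had none. That table also gave the order of genes along chromosomes, on the brightest kept probe set of each gene.

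The members and lists were chosen with earlier results of these data known. Named were all members, RARRES1, pathway list and marker members past the threshold, the 5 genes most like MAF1 and the genes adjacent to it; other genes are marked. Alternatives were quantile normalisation, median centring, an offset of 50, no filter, a 75th percentile filter, the 6 arrays of a comparison, a replicate block, trend and robust eBayes, the methods' t-test, and each array left out. The number of arrays limits the precision.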

Additional observations from a re-analysis of the deposited data

Results flagged for a closer look

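MAF1 differed between the TIG1 lines by a direct test. The difference of TIG1A from control cells exceeded that of TIG1B from control cells by 1.18 on the log2 scale (adjusted p = 0.0270, limma), with 3 of 3 TIG1A arrays above all TIG1B arrays. The adjusted p ranged from 6.56e-04 to 0.190 over the alternatives. Groups of 3 arrays are too small for a test of single outlying arrays.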

How the results depend on the processing

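MAF1 kept its direction in TIG1A against control cells under all 19 alternatives (log2 differences from 1.20 to 1.46, adjusted p from 6.12e-05 to 0.0576). Alternatives that changed only the filter, the test or the TIG1B arrays used the same values, so their difference of 1.30 could not change. It missed the threshold without the filter (1.30, adjusted p = 0.0576) and with the methods' t-test (1.30, adjusted p = 0.0523). With 1 array left out the difference was 1.20 to 1.36. In TIG1A against TIG1B cells it missed the threshold without the filter (1.18, adjusted p = 0.151), on the 6 arrays of the comparison (1.18, adjusted p = 0.0506), with the replicate block (1.18, adjusted p = 0.115), without the arrays numbered 1 of both TIG1 lines (1.14, adjusted p = 0.190), and without any one TIG1A or TIG1B array (adjusted p from 0.0788 to 0.101). With 1 array left out the difference was 1.13 to 1.23. The cause was not tested.

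The 1 member probe set called in TIG1A against control cells became 0 with no filter or the methods' t-test, 4 with the 75th percentile filter (MAF1, POLR3A, POLR3C and POLR3K), 2 with trend and robust eBayes (MAF1 and POLR3C), and 1 to 5 with 1 array left out. In TIG1B cells 0 became 1 with the offset of 50, the 75th percentile filter, or trend and robust eBayes (POLR3A 227872_at each time), and 0 to 1 with 1 array left out. Between the TIG1 lines 1 became 0 with no filter, the 6 arrays, the replicate block or without the arrays numbered 1, and 0 to 1 with 1 array left out. In the test of any difference 1 became 0 with no filter, the replicate block or without the arrays numbered 1, 2 with the 75th percentile filter or trend and robust eBayes, and 1 to 3 with 1 array left out.

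The 5 list probe sets called in TIG1A cells became 0 with no filter, the 6 arrays, the methods' t-test or without the arrays numbered 1, 1 with median centring or the replicate block, 9 with the offset, 11 with the 75th percentile filter, 10 with trend and robust eBayes, and 0 to 14 with 1 array left out. The 3 in TIG1B cells became 0 with no filter, the 6 arrays, the replicate block, the methods' t-test or without the arrays numbered 1, 1 with median centring, 7 with the 75th percentile filter, 6 with trend and robust eBayes, and 0 to 4 with 1 array left out. The 0 between the TIG1 lines became 2 with the 75th percentile filter or trend and robust eBayes. No difference that passed the test changed sign. Of the 52 member differences that did not pass, 17 changed sign under some alternative.

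Deviations from the group means had r from -0.0369 to 0.192 over the 9 pairs of same-numbered arrays. Over the 18 other pairs r ran from -0.126 to 0.0895. The highest r was that of TIG1A array 1 with TIG1B array 1. With arrays 2 and 3 of the other line, these arrays had r from -0.126 to -0.104. Deviations within a group sum to 0, so the positive r and these negative ones are not separate observations. Whether the replicate numbers pair the samples was not tested. The methods' t-test at an unadjusted p under 0.05 called 3, 4 and 2 of the 18 member probe sets for TIG1A, for TIG1B and between the TIG1 lines (20.5%, 15.3% and 15.9% of all), and 0, 0 and 1 after adjustment (0.404%, 0.02% and 0.22% of all).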
